A study of Mus musculus with 4 samples.

Results

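The primary cilium and cystic kidney genes are a set of 56 mouse genes named by symbol. They hold the polycystins and their relatives, the nephrocystins, transition zone proteins, Bbs proteins, intraflagellar transport proteins and their kinesin motors. They were chosen by function, with earlier results of these data known. All 56 were found among the 21900 protein-coding genes of the RefSeq table. Of these 56 genes, 16 were listed for the Foxp1KspKO ChIP and 18 for the control ChIP, and 24 were listed for at least 1 of them.

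The study searched for direct targets of Foxp1, a forkhead transcription factor, in kidney distal tubules, using chromatin immunoprecipitation and sequencing (ChIP-seq). Kidney tubular cells were prepared from neonatal Foxp1KspKO mice and from neonatal littermate controls, with 1 ChIP and 1 input library for each genotype. The knockout is named after Ksp-cadherin, whose promoter serves in Cre lines specific for tubule epithelium; the Cre line, the Foxp1 allele, the alleles of the controls and the number of animals pooled were not given in any source used here. The antibody entry of the labels reads rabbit IgG for the control ChIP and Foxp1 antibody for the Foxp1KspKO ChIP, although both libraries carry a FoxP1 name, and this conflict could not be settled from the files. The libraries are therefore called by genotype, and a listing is not described as binding by Foxp1.

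The lists give 1 p-value per gene under 0.05, with no read count, position, fold or direction, so the depth is unknown and no interval can be given. They hold 4953 genes for the Foxp1KspKO ChIP and 6799 for the control ChIP. Foxp1 itself and Cdh16, the gene of Ksp-cadherin, are in neither list. The lists hold no reads that could check the genotype at Foxp1. The lists measure no expression, so the cell type on the labels could not be set against its markers.

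The primary cilium is a single antenna of microtubules on the surface of tubule cells. Its cargo moves outward on kinesin with the IFT-B complex and returns with the IFT-A complex, the BBSome carries membrane proteins, and the transition zone gates entry at the base. In humans and mice, loss of many of these proteins, or of the polycystins that sit in the ciliary membrane, gives cystic kidneys. Rfx transcription factors switch on many cilium genes through a promoter element called the X-box, while forkhead factors such as Foxp1 recognise sequences related to TGTTTAC.

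The promoters of 7 listed genes are shown because they belong to the lowest p-values of each library, or hold one of the searched motifs. Each is the 250 bases before the transcript start in the RefSeq window (GRCm38.p6), read 5′ to 3′ on the strand of the gene, and capitals mark a motif match. That start can lie inside the gene: the window of Kif3a falls wholly within the gene, which begins at 53565701. Dnajb11, Kif3a and Bbs7 had the lowest p-values in the Foxp1KspKO ChIP, and Iqcb1, Ift88 and Kif3a in the control ChIP. Arl13b and Ift57 are the further listed genes with a match. The regions are chr16:22857595-22857844 (+) for Dnajb11, chr11:53567119-53567368 (+) for Kif3a, chr3:36613390-36613639 (-) for Bbs7, chr16:36828150-36828399 (+) for Iqcb1, chr14:57423821-57424070 (+) for Ift88, chr16:62847041-62847290 (-) for Arl13b and chr16:49699044-49699293 (+) for Ift57.
Dnajb11: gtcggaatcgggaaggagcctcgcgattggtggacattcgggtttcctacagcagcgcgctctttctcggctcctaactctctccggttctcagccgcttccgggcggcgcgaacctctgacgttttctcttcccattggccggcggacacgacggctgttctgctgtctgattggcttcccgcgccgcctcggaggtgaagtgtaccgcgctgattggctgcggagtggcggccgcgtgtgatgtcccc
Kif3a: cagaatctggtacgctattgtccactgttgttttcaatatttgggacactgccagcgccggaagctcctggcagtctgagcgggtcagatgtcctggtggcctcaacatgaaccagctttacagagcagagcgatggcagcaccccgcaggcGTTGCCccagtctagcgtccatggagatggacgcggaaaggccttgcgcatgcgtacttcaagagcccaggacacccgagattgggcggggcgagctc
Bbs7: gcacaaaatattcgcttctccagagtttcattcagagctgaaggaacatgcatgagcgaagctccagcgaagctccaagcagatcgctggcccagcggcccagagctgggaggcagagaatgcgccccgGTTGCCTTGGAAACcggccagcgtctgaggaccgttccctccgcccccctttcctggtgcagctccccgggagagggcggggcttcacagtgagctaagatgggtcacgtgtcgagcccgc
Iqcb1: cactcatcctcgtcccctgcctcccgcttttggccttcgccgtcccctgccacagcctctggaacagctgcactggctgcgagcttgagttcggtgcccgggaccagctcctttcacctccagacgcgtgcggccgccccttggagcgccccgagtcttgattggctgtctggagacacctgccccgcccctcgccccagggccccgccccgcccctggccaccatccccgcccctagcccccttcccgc
Ift88: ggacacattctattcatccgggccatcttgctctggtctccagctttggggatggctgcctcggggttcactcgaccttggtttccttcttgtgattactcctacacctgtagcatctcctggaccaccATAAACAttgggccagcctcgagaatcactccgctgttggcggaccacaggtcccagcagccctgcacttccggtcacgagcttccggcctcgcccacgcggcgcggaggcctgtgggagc
Arl13b: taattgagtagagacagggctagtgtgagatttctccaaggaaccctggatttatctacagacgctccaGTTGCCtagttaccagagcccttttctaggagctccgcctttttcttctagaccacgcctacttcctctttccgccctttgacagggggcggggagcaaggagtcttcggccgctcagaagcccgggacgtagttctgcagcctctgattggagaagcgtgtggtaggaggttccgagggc
Ift57: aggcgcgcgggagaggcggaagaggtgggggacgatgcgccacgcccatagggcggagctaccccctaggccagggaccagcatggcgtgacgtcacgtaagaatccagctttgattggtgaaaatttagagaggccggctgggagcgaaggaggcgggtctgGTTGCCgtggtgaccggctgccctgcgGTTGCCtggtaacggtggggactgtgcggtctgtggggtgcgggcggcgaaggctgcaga

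The partial X-box (GTTGCC, either strand) is marked in Kif3a, Arl13b and Ift57, where it occurs at 2 places. The full X-box (GTTNCC and GGNAAC parted by any 2 bases) is marked in Bbs7. In Ift57, the GTTGCC nearer the start is followed by GGTAAC after a shorter gap, which the search for the full X-box did not count. The partial X-box of Bbs7 is part of its full X-box. The capitals in Ift88 mark ATAAACA, which is the forkhead variant TGTTTAT read on the other strand, at positions -121 to -115 counted back from the start. Ift88 also holds a partial X-box at positions 22 to 27 after the start, beyond the printed bases. Dnajb11 and Iqcb1 held none of the searched letters. The base composition of the printed windows was rich in G and C, between 54.8% in Arl13b and 71.2% in Iqcb1.

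As a group, the 56 genes were listed at a share not far from that of all genes. The Foxp1KspKO ChIP listed 16 of them (28.6%), against 20.9% of all protein-coding genes. The control ChIP listed 18 (32.1%), against 29.0% of all protein-coding genes. Both ChIPs listed 10 (17.9%, with 13.2% of all genes), the Foxp1KspKO ChIP alone 6 (10.7%, with 7.63%), and the control ChIP alone 8 (14.3%, with 15.7%). The other 32 genes (57.1%, with 63.4%) were in neither list. With 1 library per genotype these differences have no replicate check, and no test was made.

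The strength of a listing, taken as −log10 of its p-value, was also low or ordinary for these genes. In the authors' deposited table the 16 genes of the Foxp1KspKO ChIP had p-values between 1.92e-06 and 0.0487 and a median −log10 p of 1.83, below the 2.27 of all listed protein-coding genes. The 18 genes of the control ChIP ran from 2.71e-06 to 0.0472 in the authors' deposited table, with a median −log10 p of 2.96 beside 2.95 for all listed protein-coding genes. Of the Foxp1KspKO genes, 6 of 16 ranked in the stronger 50% of their list, and of the control genes 9 of 18.

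**Figure D1:**
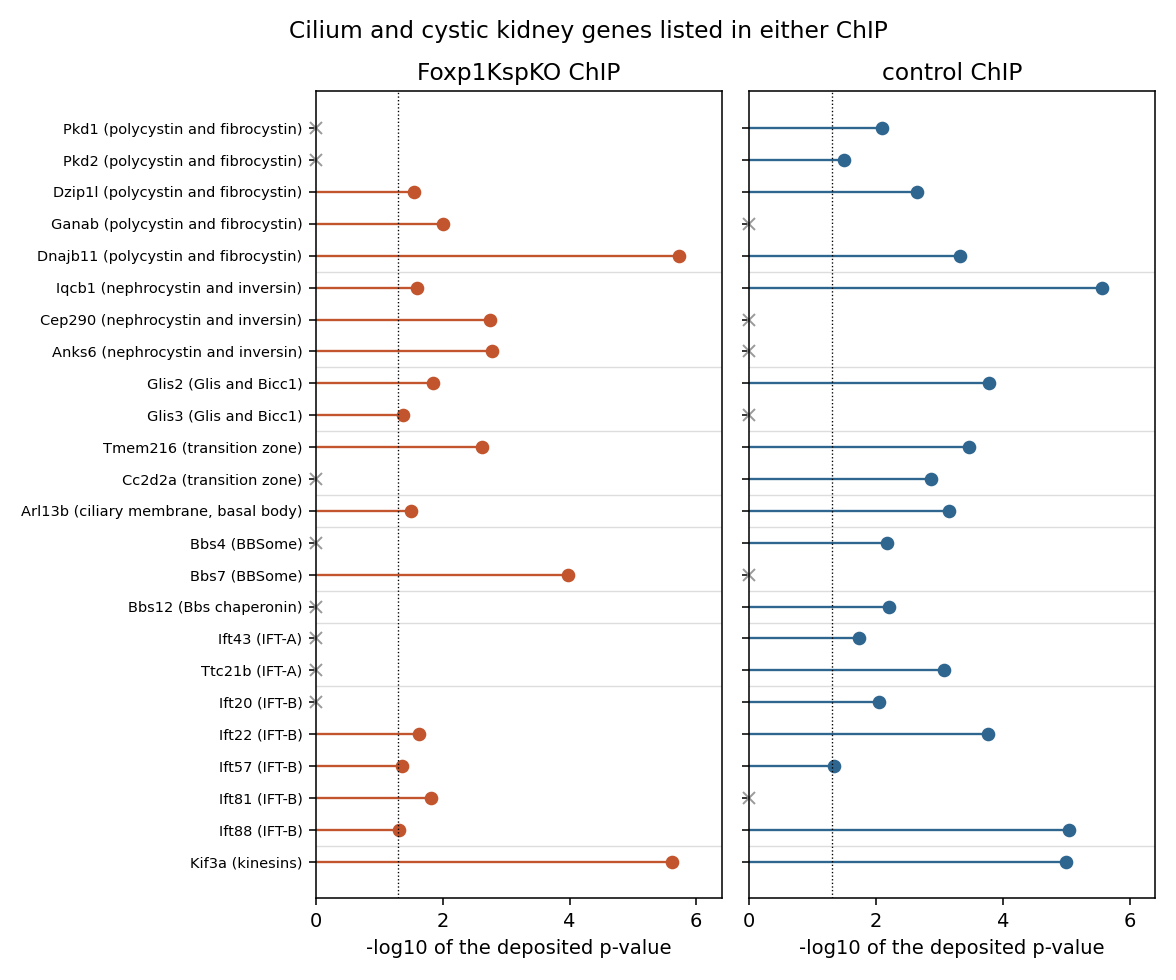
−log10 of the deposited p-value of the 24 listed cilium and cystic kidney genes in the Foxp1KspKO ChIP (left) and the control ChIP (right), grouped by role; a cross at 0 marks a gene not listed, and the dotted line is the 0.05 limit. Dnajb11 and Kif3a stand out in the Foxp1KspKO ChIP at 5.72 and 5.62, while Iqcb1, Ift88 and Kif3a lead the control ChIP at 5.57, 5.05 and 4.99.

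Set beside the 20.9% and 29.0% of all protein-coding genes, functional groups of 2 to 11 genes give coarse shares that a single gene can move widely. Among the polycystin group, the 2 classic polycystin genes were listed for the control ChIP alone. Pkd1, whose receptor-like product is lost in most dominant polycystic kidney disease in humans, was not listed for the Foxp1KspKO ChIP and had p = 0.00807 for the control in the authors' deposited table (chromosome 17, 24548689 to 24596514). Pkd2, which encodes its cation channel partner, was likewise absent from the Foxp1KspKO list and had p = 0.0314 for the control in the authors' deposited table, a weak value at rank 6163 of 6799. Both genes are in the authors' unique control list. Pkhd1, the fibrocystin gene of recessive polycystic kidney disease, and the relatives Pkd1l1 and Pkd2l1 were in neither list.

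The other 3 genes of the polycystin group, Dnajb11, Ganab and Dzip1l, were listed for the Foxp1KspKO ChIP. Dnajb11, a chaperone of the endoplasmic reticulum needed for polycystin-1 maturation, had the lowest p-value of the 56 genes in the Foxp1KspKO ChIP, with 1.92e-06 there and 4.64e-04 for the control in the authors' deposited table. The gene lies on chromosome 16 from 22857845 to 22879634 and ranked 345 of 4953 genes (6.97%) in the Foxp1KspKO list and 2934 of 6799 (43.2%) in the control list. Ganab, the catalytic subunit of glucosidase II in the same compartment, had 0.00973 for Foxp1KspKO in the authors' deposited table and was not in the control list. Dzip1l, a basal body protein mutated in recessive polycystic disease in humans, had 0.0287 for Foxp1KspKO and 0.0023 for the control in the authors' deposited table. In all, 3 of the 8 genes of the group were listed for the Foxp1KspKO ChIP and 4 for the control ChIP. Outside the 56, of the endoplasmic reticulum genes Alg9, Sec63, Prkcsh, Sec61b and Alg8, named after their values were seen, Alg9 was in the Foxp1KspKO list alone, Sec63 in the control list alone and the others in neither.

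Nephrocystin and inversin genes, whose human counterparts underlie nephronophthisis, had 3 of 7 genes in the Foxp1KspKO list and 1 in the control list. Iqcb1, a calmodulin-binding partner of Cep290, was in both, with 0.026 for Foxp1KspKO and 2.71e-06 for the control in the authors' deposited table. That is the lowest control value of the 56 genes (chromosome 16, 36828360 to 36872719), at rank 1448 of 6799 (21.3%), while its Foxp1KspKO value ranked 4009 of 4953 (80.9%). Cep290, which bridges microtubules and membrane in the transition zone, had 0.00181 for Foxp1KspKO in the authors' deposited table and was not in the control list. Anks6, an activator of the ciliary kinase Nek8, had 0.00171 for Foxp1KspKO in the authors' deposited table and was not in the control list. Nphp4, Invs, Rpgrip1l and Nek8 itself were in neither list.

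The cystic regulators were Glis2 and Glis3, zinc finger transcription factors, and Bicc1, an RNA-binding protein. Glis2 had 0.0143 for Foxp1KspKO and 1.68e-04 for the control in the authors' deposited table (chromosome 16, 4594320 to 4625141). Glis3 had 0.0421 for Foxp1KspKO in the authors' deposited table, close to the limit, and was not in the control list. Bicc1 was in neither.

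Of the 9 transition zone genes, 1 (11.1%) was in the Foxp1KspKO list and 2 (22.2%) in the control list, which for so few genes is near the 20.9% and 29.0% of all protein-coding genes. Tmem216, a membrane protein of this gate, had similar places in both lists, with 0.00238 for Foxp1KspKO and 3.43e-04 for the control in the authors' deposited table (ranks of 39.9% and 41.4%). Cc2d2a, a scaffold of the same complex, was not in the Foxp1KspKO list and had 0.00138 for the control in the authors' deposited table. Tmem67, Tmem231, Tmem237, Mks1, B9d1, B9d2 and Ahi1 were in neither list. Of the ciliary membrane and basal body genes, Arl13b, a small GTPase of the ciliary membrane, had 0.0315 for Foxp1KspKO and 7.15e-04 for the control in the authors' deposited table. Its partner in Joubert syndrome, the lipid phosphatase gene Inpp5e, and the centriolar gene Ofd1 were in neither.

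**Figure D2:**
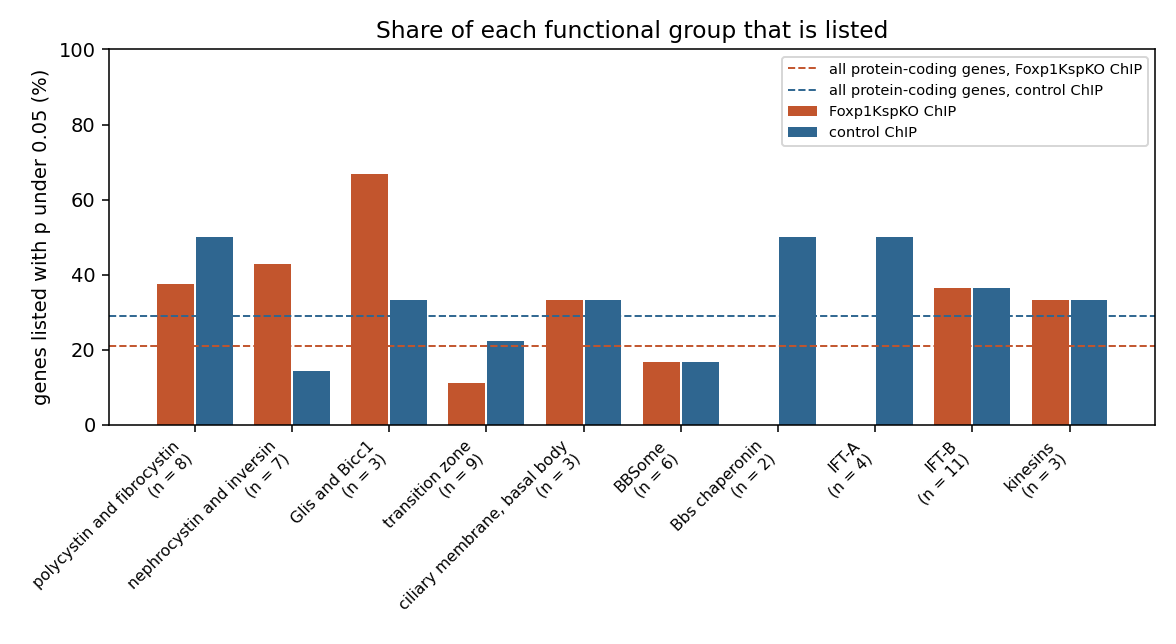
Percentage of the genes in each of 10 functional groups that were listed with p under 0.05, for the Foxp1KspKO ChIP (left bar) and the control ChIP (right bar), with the number of genes under each group; dashed lines give all protein-coding genes at 20.9% for the Foxp1KspKO ChIP and 29.0% for the control ChIP. Groups of 2 to 11 genes make each step large: the transition zone stands at 11.1% for Foxp1KspKO and 22.2% for the control, and IFT-A has no bar for Foxp1KspKO.

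Of the 8 genes of the BBSome and its chaperonin among the 56, 0 were in both lists, where 13.2% of all protein-coding genes were. This 0 rests on few genes, 6 of the BBSome and 2 of the chaperonin. Outside the 56, Bbip1, Arl6 and Lztfl1, genes of the BBSome or its partners, were in both lists. The BBSome gene Ttc8 and the chaperonin gene Mkks were in neither. Lztfl1, Ttc8 and Mkks were named after their values were seen. Bbs7, a core BBSome subunit, had 1.07e-04 for Foxp1KspKO in the authors' deposited table and was not in the control list; on chromosome 3 from 36573142 to 36613492, it is the strongest of the 6 genes listed for the Foxp1KspKO ChIP alone. Bbs4, another subunit, was not in the Foxp1KspKO list and had 0.00669 for the control in the authors' deposited table. Bbs12, part of the chaperonin that assembles the complex, was not in the Foxp1KspKO list and had 0.00633 for the control in the authors' deposited table. Bbs1, Bbs2, Bbs5, Bbs9 and Bbs10 were in neither.

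IFT-B, the outward-moving complex, had 4 of 11 genes in the Foxp1KspKO list and 4 of 11 in the control list, with 3 in both. Ift88, the gene disrupted in a classic mouse model of polycystic kidney, had 0.0487 for Foxp1KspKO and 9.01e-06 for the control in the authors' deposited table. It lies on chromosome 14 from 57424064 to 57517936. Its ranks, 99.0% of the Foxp1KspKO list and 24.7% of the control list, lie far apart. The small GTPase gene Ift22 had 0.0239 for Foxp1KspKO and 1.71e-04 for the control in the authors' deposited table. Ift57 was weak in both libraries, with 0.0435 for Foxp1KspKO and 0.0472 for the control in the authors' deposited table. Ift81, which helps to carry tubulin, had 0.0154 for Foxp1KspKO in the authors' deposited table and was not in the control list. Ift20, which links the Golgi to the cilium, was not in the Foxp1KspKO list and had 0.00912 for the control in the authors' deposited table. Ift74, the tubulin-binding partner of Ift81, was in neither list, as were Ift27, Ift46, Ift52, Ift80 and Ift172.

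IFT-A, the returning complex, had 0 of 4 genes in the Foxp1KspKO list and 2 of 4 in the control list. The subunit genes Ttc21b and Ift43 had 8.51e-04 and 0.0188 for the control in the authors' deposited table, and Ift122 and Ift140 were in neither list. The count of 0 covers 4 genes only.

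Kif3a, a motor subunit of kinesin-2 whose deletion in mouse tubules gives cysts, was among the 3 lowest p-values of the 56 genes in both libraries. It had 2.37e-06 for Foxp1KspKO and 1.03e-05 for the control in the authors' deposited table (chromosome 11, 53565701 to 53604248), at ranks of 7.35% and 25.2%. No other listed gene shared either of these p-values. Its motor partner Kif3b and the hedgehog-linked kinesin Kif7 were in neither list.

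Among the 10 genes in both lists, 3 had the lower p-value in the Foxp1KspKO ChIP (Dnajb11, Kif3a and Ift57) and 7 had it in the control ChIP. Over all protein-coding genes in both lists 27.8% had the lower value for Foxp1KspKO and 72.2% for the control, so the 30.0% and 70.0% found here lie near the background. As a difference in −log10 p, Foxp1KspKO minus control, the 10 genes ran from 2.38 for Dnajb11 to -3.98 for Iqcb1 and -3.73 for Ift88. At a stricter limit of 0.01, the Foxp1KspKO ChIP listed 7 of the 56 genes (12.5%, with 12.6% of all protein-coding genes) and the control ChIP 15 (26.8%, with 21.1%). At 0.001 the counts were 3 (5.36%, with 6.62%) for the Foxp1KspKO ChIP and 9 (16.1%, with 14.3%) for the control ChIP. After Benjamini-Hochberg adjustment over all protein-coding genes the Foxp1KspKO ChIP kept 6 genes and the control ChIP kept 15, beside 10.3% and 21.3% of all genes. With both values under 0.01, 3 of the 56 genes remained in both lists, Dnajb11, Kif3a and Tmem216, which is 5.36% of them, against 7.52% of all protein-coding genes.

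The authors' unique control list held 8 of the 56 genes (14.3%), against 15.1% of all protein-coding genes. They were Pkd1, Pkd2, Cc2d2a, Bbs4, Bbs12, Ift43, Ttc21b and Ift20, which are also the 8 genes listed for the control ChIP alone. Outside the 56, Tsc1 and Rfx3 are in the unique control list and also in the Foxp1KspKO list. A place in the unique list therefore does not always mean absence from the Foxp1KspKO list.

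All 5 of the 56 genes that lie on chromosome 16 were in both lists: Glis2, Dnajb11, Iqcb1, Ift57 and Arl13b. They span 58.3 Mb and the closest neighbours are 12.8 Mb apart, so they are not a gene cluster. On this chromosome 21.8% of all protein-coding genes were listed for the Foxp1KspKO ChIP, 26.1% for the control ChIP and 14.7% for both, which is within the range of the autosomes (10.6% to 17.4% for both). In all, 10 of the 56 genes (17.9%) were in both lists, with 13.2% of all protein-coding genes. Of these 10, only the other 5 lie outside chromosome 16. The chromosome was singled out after the values were seen.

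**Figure D3:**
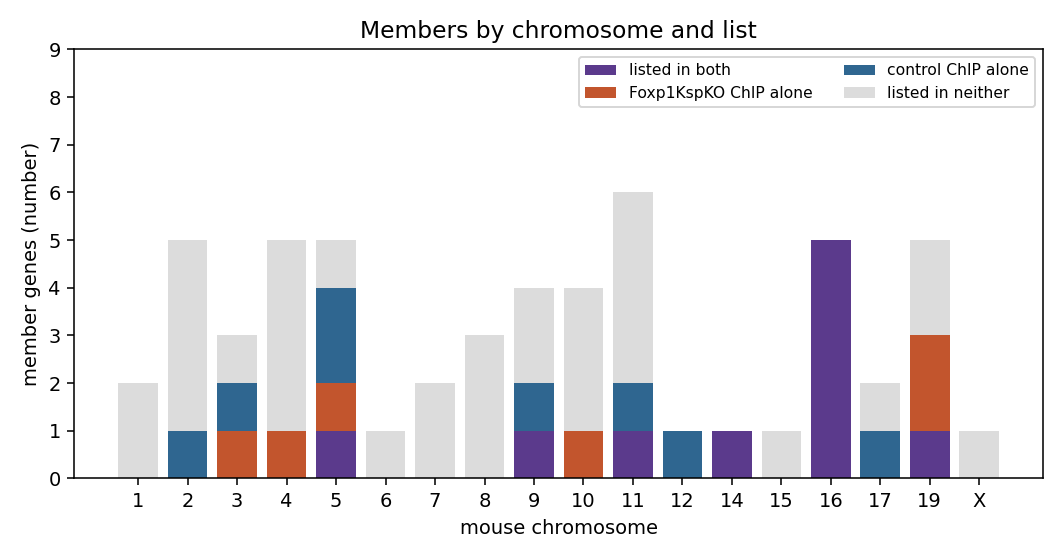
Number of the 56 genes on each mouse chromosome that holds any, stacked by list: in both, in the Foxp1KspKO ChIP alone, in the control ChIP alone, or in neither. The 5 genes of chromosome 16 are all in both lists, while the 3 of chromosome 8 are in neither.

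Gene length went with the listing in an uneven way. The median length was 43161 bp for the 24 listed genes and 40054 bp for the 32 others, and the 56 genes as a whole were longer than all protein-coding genes (41979 bp against 17146 bp). Of the 41 genes from 10 to 100 kb, 14 (34.1%) were listed for the Foxp1KspKO ChIP and 15 (36.6%) for the control ChIP, against 21.5% and 30.2% of all genes of that length. Of the 6 genes under 10 kb, 1 (16.7%) was listed for the Foxp1KspKO ChIP and 3 for the control ChIP, against 18.5% and 23.7% of all genes of that length. Of the 9 genes of 100 kb or more, 1 (Glis3) was listed for the Foxp1KspKO ChIP and 0 for the control ChIP, although 25.3% and 40.3% of all genes of that length were. The 8 long genes in neither list include Pkhd1, Invs, Bicc1, Bbs9 and Ahi1. The part of length in the listings was not tested.

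Some of the genes start close to a neighbour that is read in the opposite direction, and the listing could differ within such a pair. Of the 7 genes with a head-to-head neighbour under 1000 bp away, 3 were in a pair with a listed gene. In each of these 3 pairs the genes differed in their listing in at least 1 ChIP. The share of such pairs over all protein-coding genes was not counted, so these counts say nothing particular about the cilium genes. Cep290 and Tmtc3 lie 182 bp apart, and the authors' deposited table gives them the same Foxp1KspKO value of 0.00181, while in the control ChIP Cep290 is not listed and Tmtc3 has 0.00356. Ift20 and Tnfaip1 are 90 bp apart; in the authors' deposited table Tnfaip1 has 0.00379 in the Foxp1KspKO ChIP alone and Ift20 has 0.00912 in the control ChIP alone. Bbs12 is 100 bp from Cetn4, a centrin gene, which has 6.78e-05 for Foxp1KspKO and 0.00192 for the control in the authors' deposited table. Bbs12 itself is in the control list alone. The gaps of 90 and 100 bp are shorter than the fragments of 150 to 300 bp to which the chromatin was sheared, per the labels' protocols. The gap of 182 bp is within that range. The lists give no position, so where the signal lay within a pair is not known.

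Equal p-values were common in both lists and are a limit on the ranks. In the Foxp1KspKO list 11 of the 16 genes shared their value with at least 1 other gene, and in the control list 15 of the 18, beside 61.0% and 67.2% of all listed genes. The value of Cep290 is shared with 11 other genes, of which Tmtc3 is the adjacent one. Identical values in adjacent genes were rare, found for 2 protein-coding genes of the Foxp1KspKO list and 6 of the control list.

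The motif search covered the 300 bases from 250 before to 50 after each RefSeq start, on both strands, for the 48 genes with a window. The forkhead core TGTTTAC was found in 0 of the 48, beside 3.45% of all protein-coding genes with a window. The variant TGTTTAT was found in 2 (4.17%, with 4.59% of all genes), Ift88 and Ahi1, and the A/T-rich form TATTTAT, which Foxp proteins can bind, in 3 (6.25%, with 5.6%), B9d2, Ift46 and Ahi1. Of the 21 listed genes with a window, only Ift88 (4.76%) held any of the 3 forkhead forms, as did 3 of the 27 others (11.1%). Together this was 4 of the 48 genes (8.33%), with 12.5% of all protein-coding genes with a window. These differences were not tested. Of the 24 listed genes, 3 had no window and were not searched. A missing match says only that these letters are not in the window, and the deposited lists do not say where on a gene the signal lay.

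The X-box letters were found in a larger share of the cilium genes than of all genes, and in a smaller share of the listed than of the other cilium genes; neither difference was tested. The partial X-box GTTGCC was found in 17 of the 48 genes (35.4%), against 14.3% of all protein-coding genes with a window. It was in 5 of the 21 listed genes (23.8%) and in 12 of the 27 others (44.4%). The full X-box was in 3 of 48 (6.25%), against 0.497% of all genes. The matches are given with the fixed letters of the motif in capitals, to let the listed Bbs7 be compared with Mks1 and Ahi1, which were in neither list.
Bbs7: GTTgCCttGGaAAC
Mks1: GTTgCCagGGgAAC
Ahi1: GTTaCCtaGGcAAC

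**Figure D4:**
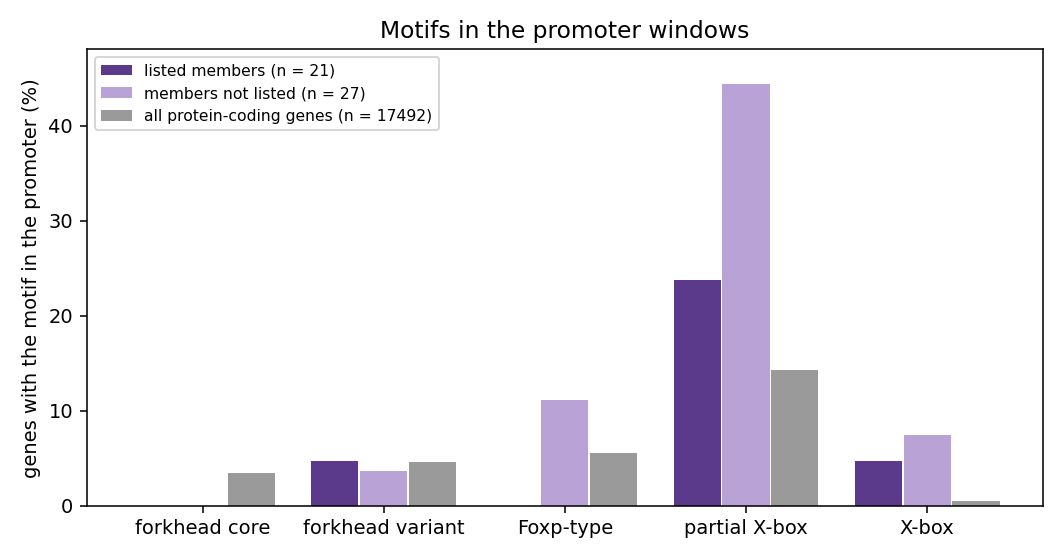
Percentage of genes whose RefSeq promoter window holds each of 5 motifs, for the listed cilium and cystic kidney genes (n = 21), those not listed (n = 27) and all protein-coding genes (n = 17492). The partial X-box stands at 23.8%, 44.4% and 14.3%, and the forkhead core is absent from both sets of cilium genes.

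A wider set of 72 further cilium and cystic kidney genes was counted in the same way. The Foxp1KspKO ChIP listed 22 of them (30.6%) and the control ChIP 26 (36.1%), against 20.9% and 29.0% of all protein-coding genes. In both were 17 (23.6%, with 13.2% of all genes), in the Foxp1KspKO ChIP alone 5 (6.94%, with 7.63%) and in the control ChIP alone 9 (12.5%, with 15.7%). Their listed genes had a median −log10 p of 1.98 for Foxp1KspKO and 4.19 for the control, against 2.27 and 2.95 for all listed protein-coding genes. The 4 dynein-2 genes, which drive the return of IFT-A, were in neither list, as were 63.4% of all protein-coding genes.

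Several of these further genes had lower control p-values than any of the 56. Tsc1, the hamartin gene whose loss also gives kidney cysts, had 2.84e-04 for Foxp1KspKO and 1.14e-13 for the control in the authors' deposited table, and is in the unique control list. Arl6, the small GTPase that recruits the BBSome to membranes, had 0.0176 for Foxp1KspKO and 1.06e-12 for the control in the authors' deposited table. Zfp423, a zinc finger gene linked to nephronophthisis, had 0.00203 for Foxp1KspKO and 5.33e-09 for the control in the authors' deposited table. The transition zone gene Tctn3 had 0.0266 for Foxp1KspKO and 6.90e-09 for the control in the authors' deposited table. All of these genes are in both lists. Cluap1, an IFT-B subunit, had 7.84e-06 for Foxp1KspKO and 1.88e-08 for the control in the authors' deposited table. Bbip1, the smallest BBSome subunit, had the lowest Foxp1KspKO value of the 72 genes, with 8.29e-07 there and 1.14e-05 for the control in the authors' deposited table.

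**Figure D5:**
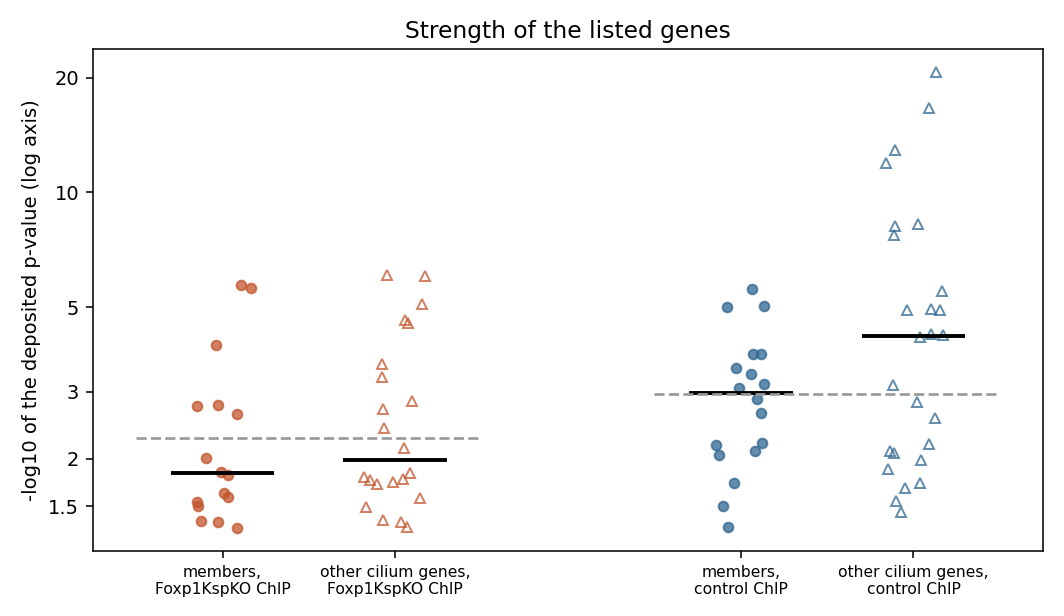
−log10 of the deposited p-value (log axis) of each listed gene, for the 56 genes (filled circles, labelled members) and the 72 other cilium genes (open triangles), in the Foxp1KspKO ChIP (left) and the control ChIP (right); black bars are medians and dashed lines the median of all listed protein-coding genes. The medians of the 56 genes are 1.83 and 2.96, and those of the other cilium genes 1.98 and 4.19.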

How the data were processed

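Chromatin immunoprecipitation and input libraries were made from kidney tubular cells, and the deposited data are 3 lists of genes with a p-value each. Per the submitters' processing notes, FastQC, Trimmomatic, Bowtie2, deepTools, edgeR and the builds GRCm38 and mm10 were used, with no version or role for any of them. How the authors obtained the deposited p-values, against which library and over which stretch of each gene, is not given in the sources used here. Every deposited p-value lies under 0.05.

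The lists were tied to the ChIP libraries by matching sheet names to sample descriptions. Genes were matched by the symbol in the list, and the lowest p-value was kept where a gene occurred more than once. Comparison lists were matched by NCBI gene number through the RefSeq table of GRCm38.p6, which gave 21900 protein-coding genes as the background and the 1-based coordinates. Strength is −log10 of the authors' deposited p-value. With 1 ChIP library per genotype no test was run, so counts and medians stand beside those of all protein-coding genes. Benjamini-Hochberg adjustment was tested on simulated data. The 56 genes, the comparison lists and the motifs were chosen with earlier results of these data known. Full values were given for genes in both lists and for the 10 lowest p-values of each library, and at most 8 further cilium and 4 motile cilium genes were named by lowest p-value. A gene that this rule would name is not reported here. Neighbouring genes were named only where they share a p-value with one of the 56 or stand head to head with it. Promoter windows came from RefSeq, and 8 of the 56 genes had none in the table used. Analyses used Python 3.11.15, pandas 2.3.3 and numpy 2.4.6.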

Additional observations from a re-analysis of the deposited data

How the results depend on the processing

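Matching the 56 genes by NCBI gene number gave the same counts as matching by symbol, and keeping the highest p-value of a repeated gene gave the same medians. At a limit of 0.01 the Foxp1KspKO ChIP listed 7 genes and both ChIPs 3; at 0.001 the Foxp1KspKO ChIP listed 3, the control ChIP 9, both 2 and the Foxp1KspKO ChIP alone 1. With Benjamini-Hochberg adjustment over all protein-coding genes, the deposited values being taken as unadjusted, the Foxp1KspKO ChIP listed 6 genes, both ChIPs 3 and the Foxp1KspKO ChIP alone 3. Without chromosome 16, an alternative chosen after seeing the data, 11 genes were in the Foxp1KspKO list, 13 in the control list and 5 in both. The share of all protein-coding genes was not recounted without this chromosome. The medians of −log10 p were 1.30 for the Foxp1KspKO ChIP and 1.30 for the control ChIP once genes not listed were set at the 0.05 limit, since most genes then take that value. The ratio of the share listed to the background share was 1.37 for the Foxp1KspKO ChIP and 1.11 for the control ChIP, and 1.58 and 1.21 among genes of 10 to 100 kb. Stricter limits and the loss of a chromosome lower the counts per list and in both lists by construction. The count in the control ChIP alone, 8 as reported, was 12 at 0.01, 7 at 0.001 and 12 with the adjustment. These later counts include genes, such as Iqcb1 and Ift88, that are in the Foxp1KspKO list but miss the stricter limit there. The share of all protein-coding genes in the control ChIP alone was not counted at these settings. No paired analysis was possible because each group has 1 library. The unknown depth limits every value here.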

Other observations

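Genes of the motile cilium, the beating form found in airways and ependyma, were listed about as often as all genes. Of 24 such genes, 6 (25.0%) were in the Foxp1KspKO list and 7 (29.2%) in the control list, with 4 in both, against 20.9% and 29.0% of all protein-coding genes. The strongest was Dnaaf3, a dynein arm assembly factor, with 1.15e-06 for Foxp1KspKO and 0.00551 for the control in the authors' deposited table. Dnal1, a dynein light chain gene, had 0.00779 for Foxp1KspKO and 0.0021 for the control in the authors' deposited table, and Nme8 was not in the Foxp1KspKO list and had 2.85e-04 for the control.

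A single transcription factor gene of cilium formation, Rfx3, had the lowest p-value of all the cilium lists counted here. Rfx3, which binds the X-box and lies next to Glis3 on chromosome 19, had 0.0171 for Foxp1KspKO and 2.19e-21 for the control in the authors' deposited table, and is in the authors' unique control list. Of the 7 factors, 3 were in the Foxp1KspKO list (Rfx3, Rfx4 and Foxj1) and 3 in the control list (Rfx3, Rfx4 and Gmnc), which is 42.9% in each, against 20.9% and 29.0% of all protein-coding genes. Rfx1, Rfx2 and Mcidas were in neither list. All but Rfx3 were named after their values were seen, and Rfx4, Foxj1 and Gmnc had 0.0414, 0.0148 and no listing in the Foxp1KspKO ChIP and 0.00798, no listing and 0.0356 for the control in the authors' deposited table.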
